A study of Mus musculus with 8 samples.

Results

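C2 is a population of mouse bone marrow progenitors sorted as KIT+ CD16/32- CD34bright CD41+ CD9+, and its open chromatin was compared with that of 3 other sorted populations. It is represented by 2 of the 8 ATAC-seq libraries of the series, and the titles and the sorted phenotypes in the labels gave each library its population. ATAC-seq uses a transposase that cuts accessible DNA and leaves sequencing adapters there, so a strong peak marks an open site. All 8 libraries came from primary bone marrow of wild-type C57BL/6 mice, with 40000 to 50000 cells in each preparation, and every population was KIT+ and CD16/32-. C18 was CD34dim CD41+ CD9+ CD48dim, C13 was CD34dim CD41- CD9-, and C10 was CD34dim CD41+ CD9+ CD48bright, with 2 libraries each. No age, treatment or transgene is stated in the labels used here, and the sort markers are all that defines a population. Whether replicate libraries derive from different mice is not stated, and p-values here reflect only how far the replicate libraries differ, a spread that may be technical. Cluster names in the design text of the series differ in part from those in the sample titles, which were followed.

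KIT is the receptor of stem cell factor and marks early progenitors, and CD16/32, the Fc gamma receptors III and II, mark progenitors committed to granulocytes and monocytes. CD34 is a sialomucin of stem and early progenitor cells. CD41 is the integrin alpha IIb chain of the platelet fibrinogen receptor, CD9 is a tetraspanin abundant on megakaryocytes and platelets, and CD48 is a receptor of the SLAM family. Open chromatin at promoters and enhancers precedes or accompanies the transcription of lineage genes in such progenitors, and the strongest peaks of a library are mostly at promoters that many cell types share.

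Each deposited F-Seq list held 100000 peaks with a signal that can be compared only within its own list. Peaks were therefore ranked within each library, rank 1 being the strongest, and each gene locus (a protein-coding gene body with 10 kb on each side) received the rank of its best peak. A locus without a peak received rank 100001. "Ranked above" means closer to rank 1. Of 21887 loci, the 18458 with a peak in at least 2 libraries were compared. In bulk libraries, an open site in fewer cells and a less open site in every cell cannot be told apart.

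Some properties of the lists moved with the populations. HOMER, a second peak caller, listed 171712 and 196264 peaks in the C2 libraries, against 72379 and 83548 in C18. The C13 libraries had 252844 and 249132, and the C10 libraries 235812 and 260118. The share of F-Seq peaks that held a HOMER peak was 71.1% and 80.8% in C2, 42.4% and 42.0% in C18, and 90.0% to 94.4% in the 4 libraries of C13 and C10. The median best rank of the loci compared was 9624.5 and 9354.5 in C2, 8818.5 and 8374 in C18, 13353.5 and 12527 in C13, and 12615.5 and 12118 in C10. On these measures C2 stood between C18 and the pair of C13 and C10. The median difference of all loci between C2 and the mean of the other populations was 0.16 on the log2 rank scale, and it was -0.11 against C18, 0.38 against C13 and 0.22 against C10. Single values below are read against these medians. The part of these list properties in the results was not tested.

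Both C2 libraries ranked above all 6 others at 980 loci, which is 5.31% of the loci compared, and below all 6 others at 436 loci, which is 2.36% (7.67% in either direction). The loci that ranked above included the HOXA cluster around Hoxa9 and Hoxa10, the interferon locus at Ifna13, the translation repressor gene Eif4ebp1 and the transcription factor genes Gata3, Tal1, Erg, Myc, Hhex and Cebpa. From Gata3 to Cebpa in this series, only Myc also ranked above all others on the HOMER lists. Those that ranked below included Olfm4, Rbfox1, Kcnq1, Prdm16 and Slamf1. Of 28 genes of stem and multipotent cells, 2 ranked above (Hoxa9 and Gata3) and 2 below (Prdm16 and Slamf1). Neither Prdm16 nor Slamf1 passed the limma test that follows. The difference at each locus was also tested with limma on log2 ranks, C2 against the mean of the other 3 populations. At an adjusted p under 0.05, 693 loci (3.75%) ranked higher in C2 and 333 (1.8%) ranked lower (5.56% in either direction). Both measures rest on the same ranks, so a call at a non-overlapping locus is no second line of evidence. Of the 980 loci above, 274 were called higher, and of the 436 below, 115 were called lower. A further 419 loci called higher and 218 called lower had overlapping libraries.

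The limma calls rested on few libraries. Without C2 replicate 1 there was 1 call higher and 0 lower by limma (2925 loci at an unadjusted p under 0.05), and without C2 replicate 2 there were 13 and 5. Without C13 replicate 1 or 2 the calls fell to 56 higher with 52 lower and to 67 with 53. Leaving out C10 replicate 1 gave 21 and 20, and leaving out C10 replicate 2 gave 1 and 1. Without C18 replicate 1 there were 1426 and 740, and without C18 replicate 2 there were 1741 and 735. On the HOMER lists limma called 2 loci higher and 0 lower, with 3621 loci at an unadjusted p under 0.05. At Olfr70, 1 of these 2, only the C2 libraries had a peak among the 72379 HOMER peaks kept from each list. When each locus was ranked among loci and not by peak, 245 loci were called higher and 529 lower, so 31.7% of the calls were higher, against 67.5% on peak ranks.

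The 5 gene starts printed here carry results described further on: Pdss1, Gata3, Tal1 and Hhex ranked above all other libraries in C2, and Olfm4 ranked below them. In C2 replicate 1 the best peak of each covered its gene start. Each sequence runs 5′ to 3′ on the gene's own strand across the gene start, from RefSeq on GRCm38.p6, the assembly behind mm10. Capitals mark the letters of motifs searched on both strands. The motif of GATA factors was searched as AGATAA and that of ETS factors as CCGGAAG. The NFY motif was searched as CCAAT, and the motif of the SP and KLF factors as GGGGCGGG. No printed match overlaps another.
Pdss1, chr2:22895272-22895571, + strand, 2 ETS matches: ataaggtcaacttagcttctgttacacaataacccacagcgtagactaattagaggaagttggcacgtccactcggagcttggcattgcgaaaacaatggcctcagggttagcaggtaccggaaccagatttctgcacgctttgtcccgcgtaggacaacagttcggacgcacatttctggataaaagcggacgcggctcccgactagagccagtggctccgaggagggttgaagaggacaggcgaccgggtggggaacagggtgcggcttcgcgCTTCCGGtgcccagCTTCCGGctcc
Gata3, chr2:9878551-9878850, - strand, an SP/KLF match: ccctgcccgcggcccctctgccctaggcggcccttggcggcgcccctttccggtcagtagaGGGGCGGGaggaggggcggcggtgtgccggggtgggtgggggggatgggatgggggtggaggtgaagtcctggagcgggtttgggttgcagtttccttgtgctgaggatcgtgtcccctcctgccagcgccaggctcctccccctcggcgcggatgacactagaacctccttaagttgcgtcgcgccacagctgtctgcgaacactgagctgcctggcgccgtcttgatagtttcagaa
Tal1, chr4:115056176-115056475, + strand, a GATA match: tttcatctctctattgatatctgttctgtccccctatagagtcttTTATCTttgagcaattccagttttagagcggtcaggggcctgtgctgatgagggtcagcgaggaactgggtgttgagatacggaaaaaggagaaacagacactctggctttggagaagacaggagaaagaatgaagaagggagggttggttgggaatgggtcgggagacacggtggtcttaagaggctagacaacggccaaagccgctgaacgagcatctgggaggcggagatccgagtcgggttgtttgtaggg
Hhex, chr19:37434591-37434890, + strand, an SP/KLF and an NFY match: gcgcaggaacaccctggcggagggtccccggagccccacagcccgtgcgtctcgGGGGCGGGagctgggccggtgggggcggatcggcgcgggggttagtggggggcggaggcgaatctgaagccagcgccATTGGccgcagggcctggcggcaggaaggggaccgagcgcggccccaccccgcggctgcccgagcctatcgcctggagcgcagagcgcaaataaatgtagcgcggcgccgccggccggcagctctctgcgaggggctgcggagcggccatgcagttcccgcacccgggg
Olfm4, chr14:80000052-80000351, + strand, an NFY match: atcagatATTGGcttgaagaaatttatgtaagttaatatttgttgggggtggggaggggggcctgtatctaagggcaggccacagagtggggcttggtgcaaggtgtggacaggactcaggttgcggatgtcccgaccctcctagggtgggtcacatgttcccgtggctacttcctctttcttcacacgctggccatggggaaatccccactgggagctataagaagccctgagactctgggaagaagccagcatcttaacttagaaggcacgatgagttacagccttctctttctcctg

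The share of promoters with these letters was counted in each set and not tested. GATA letters were in 18 of 420 promoters above (4.29%), 3 of 92 below (3.26%) and 402 of 6389 among all loci whose best C2 replicate 1 peak covered the gene start (6.29%). ETS letters were in 21.9%, 20.7% and 21.4%, and SP/KLF letters in 28.6%, 25.0% and 31.5%, in the same order. NFY letters were in 38.8% of the promoters above, 52.2% of those below and 43.9% of all. The RUNX letters TGTGGT were in 11.7%, 9.78% and 12.1%. The median GC content was 60.7% in each of the 3 sets. A match is a description of letters, and a promoter without one says nothing about the factor.

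Most gaps between C2 and the nearest other library were narrow. The median gap was 1.13-fold in rank at the loci above and 1.1-fold at the loci below. It exceeded 1.5-fold at 92 loci above and 24 below, and 2-fold at 14 above and 2 below. Just inside the rule, Gm39701 ranked 31373 and 30871 in C2, against 31387 in the nearest other library, C18 replicate 1. Just outside, Capns1, the calpain small subunit gene, ranked 5569 and 5123 in C2, against 5567 in C18 replicate 2. Ube2v2 ranked 7739 and 5721 in C2 and 5723 in C18 replicate 2, and Plekha5 ranked 6316 and 12058 in C2 and 6317 in C13 replicate 2. Loci this close to the limit differ by a few ranks only.

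Neighbouring genes often shared a peak, so loci are not independent. The 980 loci above rested on 756 distinct best peaks and the 436 below on 400. The largest sets of neighbours above had 4 loci on 1 peak, and they were Hoxa10 with Hoxa3, Hoxa7 and Hoxa9, Sco2 with Tymp, Odf3b and Klhdc7b, Nol3 with E2f4, Exoc3l and 4931428F04Rik, and a histone cluster of H2bc22, H2bc23, H2ac23 and H4c17.

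The 12 loci above with the smallest limma p spanned log2 rank differences of 1.5 to 3.09. The plot of ranks at the 12 loci above shows every library of each.

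**Figure D1:**
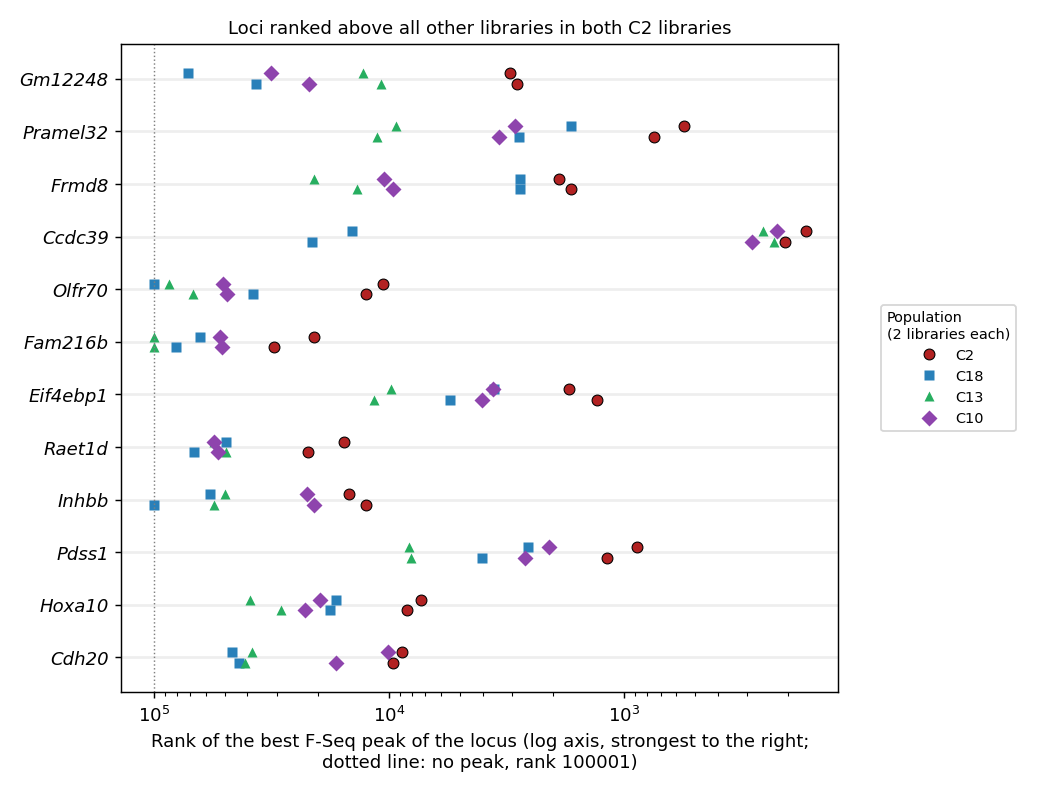
Rank of the best F-Seq peak (log axis, strongest to the right) at the 12 loci with the smallest limma p among those where both C2 libraries ranked above all others. Each row is a locus, each point a library, and the dotted line marks loci without a peak. Gm12248, Pramel32, Eif4ebp1, Olfr70, Raet1d and Hoxa10 show gaps of over 2-fold between C2 and every other library, whereas at Ccdc39 and Cdh20 the nearest libraries lie close to C2.

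Eif4ebp1, the gene of 4E-BP1, a repressor of cap-dependent translation that mTOR phosphorylates, ranked 1708 and 1301 in C2. It ranked 3560 and 5513 in C18, 9848 and 11612 in C13, and 3617 and 4040 in C10. The weaker C2 library ranked 2.08-fold above the nearest of the others. The best peaks of all 8 libraries lay at the same site, chr8:27259533-27262433 in C2 replicate 1. That site is at an end of the gene body, either its start or its far end. The log2 rank difference was 1.92 ± 0.27 (SE, limma adjusted p = 0.0153), and on the HOMER lists it was 1.65 with C2 again above all others.

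Pdss1, which makes the side chain of coenzyme Q, had its best peak over the gene start (chr2:22894859-22896811). It ranked 885 and 1187 in C2, against 2555 and 4038 in C18, 8210 and 8089 in C13, and 2078 and 2628 in C10. C2 stood first, C10 and C18 followed without a clear order, and C13 was lowest. The difference was 1.94 ± 0.281 (SE, limma adjusted p = 0.0164), and it passed the test against each population (limma adjusted p = 0.0164 against C18, 0.00033 against C13 and 0.0442 against C10).

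A peak at chr6:52219865-52222943, near the end of Hoxa9, was the best peak of Hoxa10 in all 8 libraries. HOXA factors are homeobox proteins that maintain stem and early myeloid progenitors. The Hoxa10 locus ranked 7331 and 8382 in C2, against 16825 and 17791 in C18, 39022 and 28765 in C13, and 19751 and 22859 in C10. Every other library was at least 2.01-fold behind, and C13 was lowest. The difference was 1.56 ± 0.231 (SE, limma adjusted p = 0.017). In the gene body of Hoxa10 alone, and within 2 kb of its start, the difference was 0.29 and was not called. Hoxa9 had the same C2 peak, but in 3 of the libraries its best peak lay elsewhere, at ranks of 15174 and 15280 in C13 and 16675 in C10 replicate 1. Its difference was 1.14 ± 0.233 (SE, limma adjusted p = 0.0318).

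On chromosome 4, Pramel32, of the PRAME-like family, and Ifna13, an interferon alpha gene, shared a best peak at chr4:88640777-88642141. Its ranks were 556 and 744 in C2, 1689 and 2792 in C18, 9308 and 11290 in C13, and 2912 and 3408 in C10. All 8 libraries had their best peak at that site, C2 was 2.27-fold clear of the others, and C13 was again lowest. The difference was 2.68 ± 0.288 (SE, limma adjusted p = 0.00655), and 3.36 on the HOMER lists (limma adjusted p = 0.056).

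Frmd8, whose product binds the iRhom partners of the sheddase ADAM17, ranked 1895 and 1681 in C2, against 2768 and 2771 in C18, 20762 and 13627 in C13, and 10513 and 9607 in C10. C18 lay close to C2, and the difference from C18 alone was 0.63 (limma adjusted p = 0.192), whereas it was 3.24 from C13 (limma adjusted p = 0.00016) and 2.49 from C10 (limma adjusted p = 0.00522). The best C2 replicate 1 peak, chr19:5839434-5850743, lay outside the gene body. In the gene body alone, and within 2 kb of the gene start, the difference from the mean was 0.97 and was not called.

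Olfr70, an olfactory receptor gene, shares a best peak at chr4:43693691-43695437 with Tmem8b. It ranked 10620 and 12592 in C2. C18 had no peak in replicate 1 and rank 37969 in replicate 2, and the ranks were 86287 and 68241 in C13 and 50884 and 48861 in C10. The difference was 2.42 ± 0.316 (SE, limma adjusted p = 0.013). On the HOMER lists, cut to 72379 peaks, only the C2 libraries had a peak there, at ranks of 19055.5 and 22150.5. All 6 others held the rank given to loci without one, so no p is given for it. A weaker HOMER peak past the cut would not be seen.

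Raet1d, a ligand gene of the NKG2D receptor, and Inhbb, the gene of the activin beta B subunit, were weaker loci. Raet1d ranked 15503 and 22104 in C2, against 49132 and 67618 in C18, 55678 and 49324 in C13, and 55436 and 53336 in C10. Inhbb ranked 14735 and 12567 in C2 and 22404 and 20888 in C10, while C13 had 49789 and 55772 and C18 had 57507 and no peak. At Inhbb C10 was nearest, and the difference from C10 of 0.67 did not pass (limma adjusted p = 0.152). Fam216b ranked 20939 and 30715 in C2, 63456 and 80898 in C18 and 52252 and 51209 in C10, with no peak in either C13 library.

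Ccdc39 and Cdh20 had other populations close to C2, and Gm12248 and Ccdc39 differed between the peak callers. Ccdc39, a gene of ciliary motor assembly, shares its peak with Ttc14 and ranked 169 and 207 in C2, 14441 and 21229 in C18, 256 and 231 in C13, and 224 and 287 in C10. C18 alone was far from C2, with a difference of 6.55, against 0.38 from C13 and 0.44 from C10. On the HOMER lists Ccdc39 ranked 13157 and 12100.5 in C2, behind C10 at 3730 and 7591. Its difference from the mean was -0.12 there, and 0.02 in the gene body alone. Cdh20, a cadherin gene, ranked 8786 and 9582 in C2 and 10138 and 16834 in C10, with C18 and C13 between 38191 and 46461. Gm12248, a predicted gene, ranked 3053 and 2860 in C2, 71373 and 36832 in C18, 12965 and 10830 in C13, and 31827 and 21829 in C10. The difference was 3.09 ± 0.293 (SE, limma adjusted p = 0.00483). Its difference was -0.54 on the HOMER lists, so the direction there was the opposite one.

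Of these 12 loci, 9 also ranked above all others on the HOMER lists and 8 kept a positive difference in all alternatives. Against single populations, 11 passed against C18, 11 against C13, 9 against C10 and 8 against all 3. Without C2 replicate 1 no locus of the 12 was called, 3 were called without C2 replicate 2, and 1 was called without C10 replicate 2.

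Among the loci below, Olfm4, the gene of olfactomedin 4, a granule glycoprotein of a subset of neutrophils, had the widest gap. It ranked 97713 and 96546 in C2, near the end of the list, against 25139 and 29842 in C18, 28188 and 38219 in C13, and 30179 and 38245 in C10. All other libraries were at least 2.52-fold ahead of C2. C13 overlapped C18 and C10, and both C18 libraries lay ahead of both C10 libraries. The best C2 replicate 1 peak lay over the gene start (chr14:79999970-80000582), and the best peaks of all 8 libraries overlapped that site. The difference was -1.64 ± 0.212 (SE, limma adjusted p = 0.013) and passed against each population. On the HOMER lists it was -0.62, with no peak of either C2 library among the 72379 kept from each list.

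**Figure D2:**
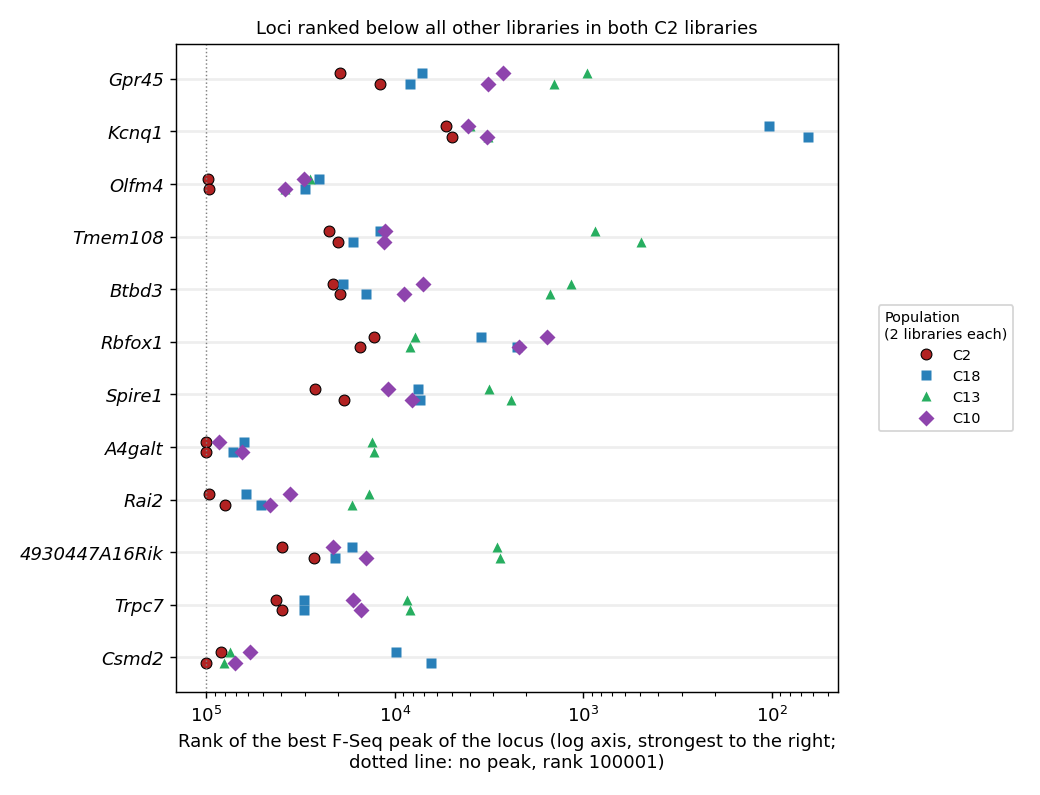
Rank of the best F-Seq peak (log axis, strongest to the right) at the 12 loci with the smallest limma p among those where both C2 libraries ranked below all others. Each row is a locus and each point a library. At Olfm4 the 6 other libraries lie between 25139 and 38245. At Tmem108, Btbd3 and A4galt C13 stands far ahead, and at Kcnq1 and Csmd2 only C18 does. At Gpr45 C13 is first and C10 follows.

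C13 was the strongest population at 8 of these 12 loci, among them Gpr45, an orphan G protein-coupled receptor gene. Gpr45 ranked 19632 and 11936 in C2, against 7157 and 8281 in C18, 957 and 1431 in C13, and 2676 and 3193 in C10. Tmem108 ranked 22469 and 19964 in C2, 11920 and 16650 in C18, 871 and 492 in C13, and 11289 and 11435 in C10. At Tmem108 the difference was -5.02 from C13 (limma adjusted p = 4.02e-05) but -0.59 from C18 (limma adjusted p = 0.27) and -0.9 from C10 (limma adjusted p = 0.103).

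Btbd3, a BTB domain gene known for dendrite orientation in the mouse brain, ranked 21323 and 19481 in C2, against 18813 and 14204 in C18, 1163 and 1507 in C13, and 7083 and 8927 in C10. The C2 replicate 1 site, over the gene start, held the best peak in 2 of the 8 libraries. Within 2 kb of the start the difference was -0.03, in the gene body alone -0.42, and neither was called. On the HOMER lists C13 ranked 15972.5 and 24805.5 and did not lead C10, at 11744.5 and 16210. Spire1, an actin nucleator gene, ranked 26561 and 18523 in C2, 7563 and 7368 in C18, 3158 and 2416 in C13, and 10864 and 8145 in C10. Spire1 and Olfm4 were the 2 loci of the 12 that passed against all 3 populations. A4galt, which makes the glycolipid Gb3, had no peak in either C2 library, ranked 13221 and 12947 in C13, and lay between 63050 and 86075 in C18 and C10.

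C18 carried the difference at 2 loci on the F-Seq lists. Kcnq1, a potassium channel gene, ranked 5366 and 4990 in C2, against 103 and 64 in C18, 3970 and 3185 in C13, and 4068 and 3238 in C10. The difference was -5.99 from C18, -0.54 from C13 and -0.51 from C10, and only the first passed (limma adjusted p = 5.68e-06). Csmd2 ranked 83626 in C2 replicate 1 with no peak in replicate 2, against 9796 and 6395 in C18 and 58844 to 80654 in C13 and C10. On the HOMER lists Kcnq1 ranked 9268 and 9180 in C2, again below all others, against 3877 and 2548 in C18. The HOMER difference was -1.04 at Kcnq1 (limma adjusted p = 0.129) and -0.18 at Csmd2 (limma adjusted p = 0.712). With only the F-Seq peaks that held a HOMER peak, both differences shrank and neither locus was called.

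Rbfox1, a splicing factor gene of neurons and muscle, was nearest to C2 in C13. It ranked 12887 and 15338 in C2, 3476 and 2237 in C18, 7795 and 8298 in C13, and 1563 and 2180 in C10. The difference was -2.02 ± 0.271 (SE, limma adjusted p = 0.013). Rai2 on the X chromosome, Trpc7, a cation channel gene, and 4930447A16Rik differed by -1.43, -1.37 and -1.75. Of the 12 loci below, 9 ranked below all others on the HOMER lists, and 11 kept a negative difference in all alternatives. The test passed against C18 at 5, against C13 at 9 and against C10 at 7. No locus of the 12 was called without C2 replicate 1, and none was called without C10 replicate 2.

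The loci above and below differed in where their peaks lay. In C2 replicate 1 the best peak was within 1 kb of either end of the gene body for 58.9% of the loci above. This was so for 37.8% of those below and 50.9% of all loci compared. Either end here means the gene start or the far end, and the 2 were not told apart. It lay inside the gene body for 13.8%, 39.5% and 20.0%, and in the 10 kb flanks for 27.3%, 22.7% and 29.2%. The median gene length was 18.2 kb above, 44.8 kb below and 21.1 kb among all. A longer gene offers more peaks from which the best is taken. The best peak lay at the same site in all 8 libraries at 579 of 980 loci above (59.1%), at 120 of the 392 loci below with a peak in C2 replicate 1 (30.6%), and at 8784 of 17558 loci in all (50.0%). These shares describe loci that were chosen by rank, and they were not tested.

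The strength of the locus also differed. When loci were divided into 5 classes of equal size by their mean rank over all 8 libraries, the share above was 7.91% in the strongest class, then 5.45%, 4.79% and 4.06%, and 4.33% in the weakest. The share below was 1.54%, 1.52%, 2.41%, 2.95% and 3.39%. The median log2 rank difference of all loci in a class was 0.28 in the strongest and -0.05 in the weakest.

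**Figure D3:**
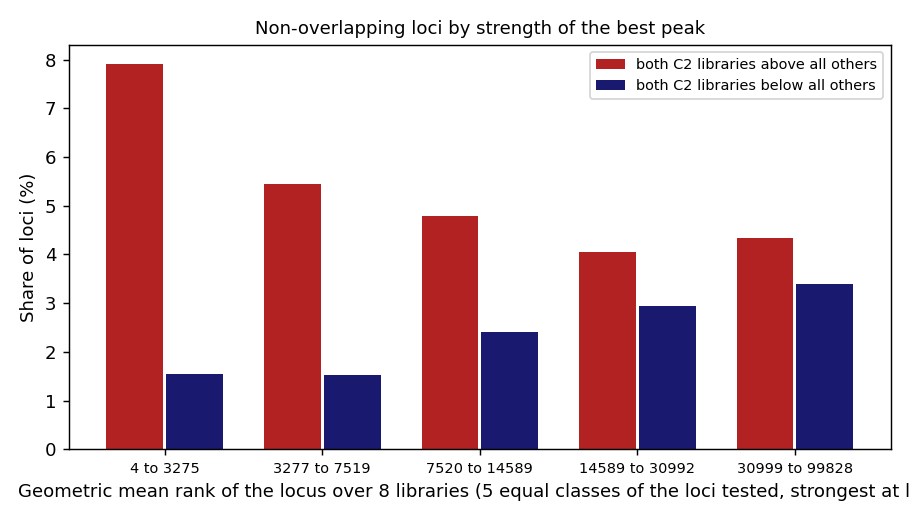
Share of loci (%) where both C2 libraries ranked above or below all others, in 5 classes of equal size by geometric mean rank over 8 libraries (strongest at left). The share above is 7.91% in the strongest class and 4.33% in the weakest, and the share below is 1.54% and 3.39%.

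Different populations set the limits of the 2 sets. At the 980 loci above, the library nearest to C2 was of C18 at 484, of C10 at 357 and of C13 at 139, and the farthest was of C13 at 492. The median log2 rank difference at these loci was 0.73 from C18, 1.02 from C13 and 0.75 from C10. Of them 202, 554 and 222 were called higher by limma against C18, C13 and C10, where 5.4%, 24.3% and 11.3% of all loci were called higher. At the 436 loci below, the nearest library was of C18 at 182, of C10 at 164 and of C13 at 90. The median difference was -0.7 from C18, -0.84 from C13 and -0.63 from C10, and 80, 190 and 54 were called lower, where 7.97%, 9.87% and 2.44% of all loci were. The rule used these same ranks, so nothing is read from the shares.

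At none of the 7 sort marker genes did both C2 libraries lie beyond all others, and limma called 0 of them (1 at an unadjusted p under 0.05, and 0 on the HOMER lists). Kit, the gene of the receptor used to sort every population, ranked 4803 and 4056 in C2, 4254 and 5788 in C18, 9748 and 9313 in C13, and 11121 and 8762 in C10. C2 overlapped C18 and lay above C13 and C10, and the difference from the mean was 0.81 ± 0.249 (SE, limma adjusted p = 0.0753).

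Although C2 was sorted as CD34bright, the Cd34 locus ranked 1883 and 1771 in C2, against 9181 and 11989 in C18, 1202 and 2571 in C13, and 974 and 1504 in C10. The difference from the mean was 0.62 (limma adjusted p = 0.27), and -0.32 without the C18 libraries. Only C18 was clearly apart (difference 2.52, limma adjusted p = 0.00684), and C13 and C10 overlapped or exceeded C2. The best C2 replicate 1 peak, at chr1:194925414-194929043 in the flank of the gene, was the best peak of no other library. Itga2b, which encodes CD41, ranked 13288 and 9733 in C2, 9259 and 6243 in C18, 21571 and 26042 in C13, and 15590 and 14854 in C10. The CD41- population C13 was lowest there, and the difference of C2 from C13 was 1.06 (limma adjusted p = 0.0247). Cd9 (0.14), Cd48 (-0.13), Fcgr3 (0.54) and Fcgr2b (0.4) had log2 rank differences that did not pass (limma adjusted p from 0.285 to 0.797).

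In the lists of lineage genes few members stood apart, as the plot of gene lists shows. The lists were compared with the median difference of 0.16, and with the 5.31% above, 2.36% below, 3.75% called higher and 1.8% called lower among all loci.

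**Figure D4:**
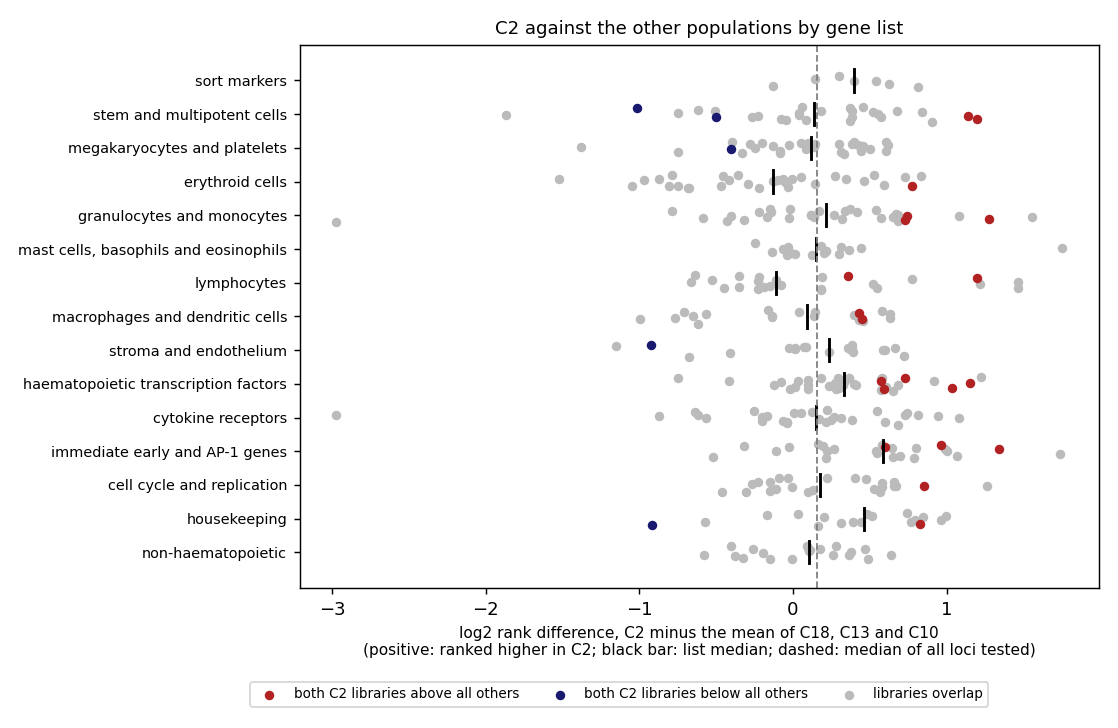
Log2 rank difference of each gene in 15 lists, C2 minus the mean of C18, C13 and C10 (positive values: ranked higher in C2). Red and dark points are genes where both C2 libraries lay above or below all others, black bars are list medians and the dashed line is the median of all loci. The immediate early genes have the highest median, 0.59, and the erythroid genes the lowest, -0.13, which ranges over the alternatives from 0.23 to 0.88 and from -0.47 to 0.08.

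Among 28 genes of stem and multipotent cells, 2 were called higher and 1 lower, and the median was 0.13. Hoxa9 and Gata3 ranked above all others. Gata3, a zinc finger factor of lymphoid cells that long-term stem cells also express, ranked 868 and 972 in C2, 4284 and 5748 in C18, 1239 and 2250 in C13, and 992 and 1302 in C10. C10 was nearly level with C2, and the difference was 1.2 ± 0.311 (SE, limma adjusted p = 0.0498). Slamf1, which encodes the stem cell receptor CD150, ranked 46406 and 34455 in C2, with the 6 other libraries between 25670 and 31022. Prdm16, a regulator of stem cell maintenance, ranked 16091 and 15045 in C2, 9050 and 3779 in C18, 11598 and 11146 in C13, and 6900 and 6840 in C10. Neither passed the test (limma adjusted p = 0.172 for Slamf1 and 0.0774 for Prdm16). Within 2 kb of the gene start the difference had the opposite sign, 0.35 at Slamf1 and 0.58 at Prdm16, and in the gene body alone it was 0.13 at Slamf1. Msi2, an RNA-binding regulator of stem cells, was called lower, with ranks of 13738 and 11742 in C2, 99 and 211 in C18, 16093 and 14759 in C13, and 20020 and 17746 in C10. Only C18 was ahead of C2 there, and without the C18 libraries the difference was 0.42. The best C2 replicate 1 peak of Msi2 was the best peak of no other library. On the HOMER lists C18, at 16479.5 and 25634, overlapped C2, at 21489.5 and 24853, and the difference was 0.05.

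Of 30 megakaryocyte and platelet genes, limma called 0 higher and 1 lower in C2, with 2 higher and 1 lower at an unadjusted p under 0.05 and 0 called on the HOMER lists, and the median was 0.11. Serpine2, a protease inhibitor gene, was the gene called lower (-1.38 ± 0.293 SE, limma adjusted p = 0.0336). It ranked 15663 and 21032 in C2, 12136 and 21136 in C18, 2312 and 1698 in C13, and 12299 and 9247 in C10, so the CD41- population was far ahead. F5, coagulation factor V, ranked 16364 and 18199 in C2 and was just below the others, the nearest being 16339 in C13 replicate 1. The median difference of the list was 0.65 from C13, 0.05 from C18 and -0.03 from C10.

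Of 32 erythroid genes compared, 1 was above all others, and limma called 0 higher and 1 lower (1 and 5 at an unadjusted p under 0.05, and 0 on the HOMER lists). The median was -0.13. Ank1, ankyrin of the red cell membrane skeleton, ranked 3438 and 3523 in C2, 8104 and 6987 in C18, 6926 and 6780 in C13, and 3888 and 4266 in C10, and it did not pass (limma adjusted p = 0.0712). The list median was -0.69 from C18, 0.37 from C13 and -0.33 from C10.

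Of 32 granulocyte and monocyte genes, 3 were above all others and 0 below, and the median was 0.22. These were Cebpa, the factor that commits progenitors to the granulocyte path, Itgam, which encodes CD11b, and Mmp8, neutrophil collagenase. Cebpa ranked 1943 and 1361 in C2, 2833 and 3826 in C18, 2684 and 2386 in C13, and 2518 and 2174 in C10. Mmp8, which shares its best peak with Mmp27, ranked 2498 and 2326 in C2, 4849 and 16441 in C18, 5971 and 6432 in C13, and 3996 and 3218 in C10. None of the 3 passed the test (limma adjusted p = 0.126 for Cebpa, 0.111 for Itgam and 0.0752 for Mmp8).

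The granulocyte genes called higher were Ctsg, cathepsin G of primary granules, and Cebpe, a factor of late granule formation, and both overlapped C18. Cebpe ranked 4267 and 2782 in C2, 2734 and 3276 in C18, 45729 and 44394 in C13, and 8259 and 7170 in C10. Ctsg ranked 12055 and 15734 in C2, 11274 and 16772 in C18, 53136 and 44693 in C13, and 40334 and 34211 in C10. Csf2ra, a receptor chain for GM-CSF, had the lowest difference of all listed genes, -2.97, but ranked 67834 in C2 replicate 1 and 769 in C2 replicate 2, with the others between 704 and 1234 (limma adjusted p = 0.142).

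Of 18 mast cell, basophil and eosinophil genes compared, only Cpa3, the mast cell carboxypeptidase, was called (1.75 ± 0.236 SE, limma adjusted p = 0.013). It ranked 8426 and 7190 in C2 and 8381 and 12259 in C10, against 34464 and 30639 in C18 and 54114 and 55499 in C13. C2 and C10 overlapped. Of 25 lymphocyte genes, Gata3, Rag1 and Rag2 were called higher and Gata3 and Cd4 were above all others, with a list median of -0.11. Rag1 and Rag2, the recombinase genes of antigen receptors, share a peak at chr2:101627117-101629490 that ranked 729 and 1332 in C2, 3056 and 3377 in C18, 5289 and 6416 in C13, and 1015 and 1153 in C10. That is 1 site and not 2 results.

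Of 20 macrophage and dendritic cell genes, limma called 0, with 1 higher and 4 lower at an unadjusted p under 0.05 and 0 called on the HOMER lists. C1qb and C1qc, complement genes with a shared peak, were above all others, at 46654 and 44587 in C2 against 52130 or weaker elsewhere. Of 19 stroma and endothelium genes, 0 were called higher and 2 lower by limma (3 higher and 3 lower at an unadjusted p under 0.05, and 0 called on the HOMER lists), and the list median was 0.23. Cxcl12, the stromal chemokine, ranked 45804 and 31831 in C2, 24786 and 31449 in C18, 19442 and 20016 in C13, and 14551 and 15197 in C10. Cdh5, the endothelial cadherin, ranked 18036 and 14557 in C2, 32019 and 27336 in C18, 1720 and 1135 in C13, and 11716 and 7605 in C10. Of 20 genes of non-haematopoietic tissues, limma called 0 on the F-Seq and 0 on the HOMER lists (1 higher and 0 lower at an unadjusted p under 0.05), and the median was 0.1.

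Haematopoietic transcription factor genes had 5 of 35 members above all others and 0 below, with a median of 0.33. Tal1 ranked 4595 and 6723 in C2, 10766 and 9087 in C18, 7965 and 7238 in C13, and 8943 and 6800 in C10. Erg ranked 4638 and 5910 in C2, with the other 6 libraries between 7031 and 8439. Both are factors of stem cells and of the megakaryocyte and erythroid paths, and neither passed the test (limma adjusted p = 0.181 for Tal1 and 0.158 for Erg).

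Myc, the growth regulator, ranked 2087 and 3385 in C2, 5625 and 3666 in C18, 8967 and 9877 in C13, and 4571 and 5132 in C10. It was called higher (1.15 ± 0.283 SE, limma adjusted p = 0.0453). Hhex, a homeobox factor of early blood and lymphoid progenitors, ranked 5057 and 4596 in C2, 6320 and 5494 in C18, 27369 and 30374 in C13, and 5515 and 5917 in C10. Only C13 was far behind at Hhex, and the mean difference of 1.04 was called (limma adjusted p = 0.0363). Zfpm1, which encodes the GATA partner FOG1, was called higher but was not extreme in C2. It ranked 3348 and 2442 in C2, 1334 and 944 in C18, 18706 and 18402 in C13, and 18156 and 11421 in C10.

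Immediate early and AP-1 genes, which respond to growth factors and stress within minutes, had the highest median of the lists, 0.59, with 4 of 24 called higher and 3 above all others. The median was -0.11 from C18, 1.04 from C13 and 0.9 from C10. Housekeeping genes had a similar order, with a median of 0.46 from the mean of the others, -0.53 from C18, 0.82 from C13 and 0.89 from C10. What the lower ranks of C13 and C10 at housekeeping genes contribute to the immediate early values was not tested. Jund, an AP-1 subunit, ranked 1719 and 1153 in C2, 1427 and 1305 in C18, 12462 and 9623 in C13, and 8433 and 5753 in C10, so C2 overlapped C18.

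Nfkbia, the inhibitor of NF-kappaB, was 1 of the immediate early genes above all others. It ranked 5976 and 3001 in C2, 9422 and 12397 in C18, 13130 and 10038 in C13, and 11800 and 8501 in C10 (1.34 ± 0.31 SE, limma adjusted p = 0.0405). Fosl2 ranked 5827 and 6109 in C2, 7822 and 8871 in C18, 14662 and 12914 in C13, and 15490 and 12231 in C10, and it was called as well (limma adjusted p = 0.0438). Egr2 had C2 ranks of 3840 and 4297 against 4351 in the nearest C18 library and did not pass (limma adjusted p = 0.147). Fos was called (1.07 ± 0.274 SE, limma adjusted p = 0.0495) with C2 ranks of 2830 and 3266 and C18 ranks of 3005 and 4223.

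Among 24 cell cycle and replication genes, Cdk6, the kinase of the early G1 phase, was above all others, with 3991 and 3492 in C2, 5871 and 7360 in C18, 8372 and 7250 in C13, and 6223 and 5690 in C10 (limma adjusted p = 0.0612). Cdkn1a, the inhibitor p21, was called higher (1.26 ± 0.263 SE, limma adjusted p = 0.0325) but overlapped C18. Of 18 housekeeping genes, Gapdh was above all others and Pgk1 below, both glycolytic enzymes, and Ppia and Rps18 were called higher. Gapdh ranked 1064 and 766 in C2, against 1251 to 1838 in the other 6 libraries, and Pgk1 ranked 2424 and 2207 in C2, against 820 to 2077. Of the 30 cytokine receptor genes limma called 0 on the F-Seq and 0 on the HOMER lists, with 5 higher and 3 lower at an unadjusted p under 0.05. Their median was 0.15 and none was non-overlapping.

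The 22 listed genes called by limma were sensitive to the libraries used. With each C2 library left out in turn, 0 of the 22 kept their call, 4 were called without C13 replicate 1 and 4 without C13 replicate 2, 1 was called without C10 replicate 1 and 0 without C10 replicate 2. On the HOMER lists 0 of the 22 passed, where 2 of 17261 loci were called in all. Without the C18 libraries 19 passed, where 5130 of 18197 loci were called higher and 1705 lower. Of all main calls, 677 of the 693 higher and 289 of the 333 lower were also called without C18.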

How the data were processed

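The deposited data are peak lists called in each library on mm10, and the submitters' processing notes name Bowtie 1.0.0 and HOMER 1.0. For F-Seq no version is given in these sources. Each F-Seq list, as the authors deposited it, gives a signal for each peak and ends at 100000 peaks. The deposited HOMER lists hold 150-base peaks with a score in an unlabelled column, and the longer ones were cut to 72379 peaks, the length of the shortest, a choice made after the list lengths were seen. Signal and score served only to rank peaks within a list, and without read counts the depth is unknown.

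Gene bodies were those of RefSeq on GRCm38.p6, which is mm10, and peaks were assigned to loci with bedtools 2.31.1. Tests used limma 3.58.1 (R 4.3.3) on -log2 rank over all 18458 loci, with 4 group means, eBayes with trend, two-sided p-values and Benjamini-Hochberg adjustment at 0.05. A positive difference means a higher rank in C2. The code was tested on simulated data. The comparisons with single populations share the C2 libraries.

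Named genes are the 12 loci above and the 12 below with the smallest p among non-overlapping loci, the list members that did not overlap, the sort markers, and 3 loci on each side of the non-overlap limit. List members that limma called but whose libraries overlapped, Csf2ra and the groups of loci sharing a peak were added after their values were seen. The members and lists were chosen with earlier results of these data known. A few loci that this rule names are not reported here.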

Additional observations from a re-analysis of the deposited data

How the results depend on the processing

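Of the counts of loci, the number above was 525 and the number below 661 on the HOMER lists, where limma called 2 higher and 0 lower (3621 at an unadjusted p under 0.05). Of the 980 loci above, 421 (43.0%) were also above on the HOMER lists, and they made up 80.2% of the loci above there. Of the 436 below, 254 (58.3%) were also below there, or 38.4% of the HOMER set. Calls higher and lower were 372 and 130 with F-Seq peaks that held a HOMER peak, 289 and 31 within 2 kb of the gene start (120 loci below), 245 and 529 with loci ranked among loci (670 below), 448 and 205 with loci without a peak at rank 200000, and 244 and 160 with no filter. With gene bodies alone 195 were called lower, and 1173 were called higher among loci with a peak in all 8 libraries. Untransformed ranks gave 0 and 0 limma calls (5010 at an unadjusted p under 0.05), as did a fit of C2 against 1 group of 6 libraries (689 unadjusted). Without the C18 libraries there were 5130 and 1705 calls, with 6124 loci above and 1761 below. Leaving out 1 library at a time gave 1 to 1741 calls higher, 0 to 740 lower, 1049 to 2256 loci above and 483 to 1379 below, where a lone library is assumed to vary like the other groups. The first 50000 peaks gave counts within 1.5 times of the main ones.

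With the replicate number as a replicate block, 1130 loci were called higher and 440 lower. The labels do not say that a number marks a shared animal or day. The correlation of replicate deviations ran from 0.002 to 0.404 over the 6 pairs of populations and was above 0.1 in 4 of them, so a pairing was not established.

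Loci called by limma reversed as follows, and the cause was not tested. On the HOMER lists Gm12248 was -0.54, Ccdc39 -0.12 and Msi2 0.05. Within 2 kb of the gene start Gm12248 was -0.05, Raet1d -0.43, Gpr45 0.07, Msi2 0.48, Serpine2 0.46 and Rag1 -0.21. In the gene body alone Gm12248 was -0.05, Raet1d -0.43, Cdh20 -0.11 and Rag1 -0.21. Without the C18 libraries Msi2 was 0.42. Among named loci that limma did not call, the sign also changed within 2 kb of the gene start at Slamf1 (0.35), Prdm16 (0.58), Itgam (-0.22), C1qb (-0.05) and Plekha5 (0.54), in the gene body alone at Slamf1 (0.13) and C1qb (-0.05), on the HOMER lists at Cd4 (-0.05), without the C18 libraries at Cd34 (-0.32), and at Cd9 with loci ranked among loci (-0.07) and without C2 replicate 2 (-0.22). List medians stayed positive in all 20 alternatives for sort markers (0.05 to 0.53), transcription factors (0.07 to 0.58), immediate early genes (0.23 to 0.88), cell cycle genes (0.01 to 0.5) and housekeeping genes (0.15 to 0.86). The lack of read counts limits every value here to its place in a list.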

Other observations

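The strongest peaks of the C2 lists lay in the bodies of 2 genes outside the gene lists. Zfp804b, a zinc finger gene, held the peak of rank 1 in both C2 libraries, at chr5:7276531-7277475, against ranks 7 and 4 in C18, 81 and 1395 in C13, and 16 and 44 in C10. Its log2 rank difference was 5.18 ± 1.01 (SE, limma adjusted p = 0.0291), and on the HOMER lists it was 0.04. Stxbp4, a syntaxin-binding protein gene, held rank 2 in both C2 libraries, at chr11:90538528-90539430, against 12 and 5 in C18, 65 and 2312 in C13, and 55 and 45 in C10, with a difference of 4.73 ± 1.1 (SE, limma adjusted p = 0.041) and 1.67 on the HOMER lists.

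Other loci with gaps of over 2-fold were named after their values were seen. Elp2, a subunit gene of the Elongator complex, and Slc39a6, a zinc transporter gene, share a peak at ranks 775 and 687 in C2, against 2479 and 3319 in C18, 2498 and 4321 in C13, and 2109 and 3716 in C10 (2.03 ± 0.326 SE, limma adjusted p = 0.0173). Pomt2 and Gstz1, genes of protein O-mannosylation and tyrosine breakdown, share a peak at ranks 459 and 567 in C2, against 1143 to 1898 elsewhere (limma adjusted p = 0.0229). Exoc3l2 ranked 4259 and 4261 in C2 and 11026 to 36961 elsewhere, with a difference of 2.0 on the F-Seq and 0.2 on the HOMER lists. Kcnmb2, a potassium channel subunit gene, had no peak in C2 replicate 1 and rank 95788 in replicate 2, against 15230 to 45686 elsewhere (-2.09 ± 0.337 SE, limma adjusted p = 0.0173).

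At 8 loci peaks were found in both C2 libraries and in no other. These loci were compared only because C2 had a peak, and all other libraries hold the rank for no peak, so no test is given. Gm1110 is 1 of them, at ranks 56739 and 41702 in C2. At 18 loci no C2 library had a peak while all others did, among them Muc5ac, a mucin gene with ranks of 12848 and 8181 in C13, and 4 neighbouring protocadherin genes, Pcdhb15 to Pcdhb18. Pcdhb15 to Pcdhb17 share a peak, and Pcdhb18 holds the same ranks in C18 and C13. All 4 lay between ranks 65895 and 96201 in the other libraries, and they are not 4 separate results. On the X chromosome 14 of 625 loci (2.24%) were above and 23 (3.68%) below, against 5.31% and 2.36% of all loci. Single autosomes ran from 3.23% to 8.61% above and from 1.18% to 3.87% below, so the X share below was within their range.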
